A study of Mus musculus with 36 samples.

Results

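The chromatin response of mouse cortical neurons to BDNF at 6 h was measured by ATAC-seq, a count of DNA fragments that the transposase Tn5 releases where chromatin is accessible, in 2 libraries of BDNF at 6 h and 6 libraries of unstimulated controls, 8 of the 36 samples of the series. Cortical neurons from CD-1 embryos of embryonic day 15, with the tissue of all embryos combined, were cultured for 7 days, and their activity was then blocked for 2 h by AP-5 (100 µM), which acts on NMDA receptors, together with TTX (1 µM), which acts on sodium channels. One group then received 10 ng/ml BDNF for 6 h, and the controls (2 libraries for each of 1, 6 and 10 h) stayed silenced. Every group, controls included, had thus been silenced. Silencing lasted 2 h before BDNF, and 3, 8 and 12 h in all for the controls of 1, 6 and 10 h. The methods of the paper do not say whether the blockers were removed before BDNF. Whether the total time of silencing differed between BDNF at 6 h and the controls of 6 h is thus not known. The part of any such difference in the changes against controls was not tested. Other libraries held BDNF at 1 and 10 h, KCl (55 mM) at the same times, and RNA-seq of the same 9 groups. Of 58177 peaks in the table, 56383 with a mean count of at least 10 over the 18 ATAC libraries were tested, and 6003 of them (4971 opening and 1032 closing) were called different from the controls.

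BDNF, brain-derived neurotrophic factor, is a secreted protein that binds the receptor kinase TrkB on neurons and, through Ras and the MAP kinases, raises the transcription of immediate early genes. Many of these encode transcription factors, among them the Fos and Jun proteins, which pair as AP-1 and bind the letters TGAGTCA and close forms of them. Enhancers are stretches of DNA away from gene starts that such factors bind, and their accessibility to transposase is a common measure of their state.

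Sequences of 4 opening peaks and 2 closing peaks with large changes are printed here as examples, and they do not represent their sets. They are from the plus strand of GRCm38, 300 bases around each peak's centre, and capitals mark the AP-1 letters TGANTCA, where N is any base. The Fabp5 and Eya1 peaks rose most, and the Cacna1c peak lies in a calcium channel gene. The Inhba peak rose by 3.97 on the log2 scale without any AP-1 letters in the printed bases, and the closing peaks near Ube2ql1 and Osr1 hold none.

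Fabp5 peak, chr3:9983968-9984267: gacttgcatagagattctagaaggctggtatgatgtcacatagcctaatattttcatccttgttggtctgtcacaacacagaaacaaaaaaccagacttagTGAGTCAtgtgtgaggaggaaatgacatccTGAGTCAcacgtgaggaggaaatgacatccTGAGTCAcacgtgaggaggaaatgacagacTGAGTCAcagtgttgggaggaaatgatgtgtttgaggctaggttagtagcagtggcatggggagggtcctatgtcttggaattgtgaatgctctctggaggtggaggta
Eya1 peak, chr1:14484518-14484817: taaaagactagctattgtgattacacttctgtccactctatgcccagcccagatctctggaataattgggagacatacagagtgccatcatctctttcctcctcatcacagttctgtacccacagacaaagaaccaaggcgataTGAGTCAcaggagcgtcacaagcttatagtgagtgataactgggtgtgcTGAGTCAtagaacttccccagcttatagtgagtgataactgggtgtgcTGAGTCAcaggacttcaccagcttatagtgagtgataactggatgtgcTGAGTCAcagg
Cacna1c peak, chr6:119091197-119091496: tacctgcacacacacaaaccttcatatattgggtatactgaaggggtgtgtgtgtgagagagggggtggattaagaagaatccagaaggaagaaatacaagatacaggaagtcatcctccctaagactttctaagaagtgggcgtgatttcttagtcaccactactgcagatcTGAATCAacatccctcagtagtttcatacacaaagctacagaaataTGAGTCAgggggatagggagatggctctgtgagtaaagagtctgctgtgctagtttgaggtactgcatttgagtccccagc
Inhba peak, chr13:15777793-15778092: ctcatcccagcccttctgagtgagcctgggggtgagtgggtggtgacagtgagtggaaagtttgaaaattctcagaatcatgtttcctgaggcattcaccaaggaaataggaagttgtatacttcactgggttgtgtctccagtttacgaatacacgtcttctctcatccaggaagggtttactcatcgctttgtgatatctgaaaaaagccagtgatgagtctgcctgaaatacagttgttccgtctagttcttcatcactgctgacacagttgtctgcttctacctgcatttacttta
Ube2ql1 peak, chr13:69759056-69759355: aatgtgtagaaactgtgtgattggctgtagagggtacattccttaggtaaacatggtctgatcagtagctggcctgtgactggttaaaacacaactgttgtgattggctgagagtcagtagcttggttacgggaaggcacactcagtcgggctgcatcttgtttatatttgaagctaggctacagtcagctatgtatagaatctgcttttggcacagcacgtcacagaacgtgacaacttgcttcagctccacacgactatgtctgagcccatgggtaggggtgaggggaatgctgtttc
Osr1 peak, chr12:9952345-9952644: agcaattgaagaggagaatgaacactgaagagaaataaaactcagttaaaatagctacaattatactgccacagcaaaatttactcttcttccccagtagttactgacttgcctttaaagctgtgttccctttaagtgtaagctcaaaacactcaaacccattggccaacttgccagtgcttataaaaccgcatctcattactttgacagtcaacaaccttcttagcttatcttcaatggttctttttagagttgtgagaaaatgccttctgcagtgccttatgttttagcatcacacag

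The printed bases hold AP-1 letters 4 times at the Fabp5 and Eya1 peaks and 2 times at the Cacna1c peak.

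The BDNF 6 h libraries A and B (names given in column order, since ATAC columns carry no replicate number) held 3.59 and 5.83 M reads in peaks and the controls 2.43 to 4.24 M. Replicates of a group correlated at 0.857 to 0.929 (Pearson, log2 counts across peaks). The labelled cell type was checked in the RNA of the same conditions. Summed pan-neuronal markers were at 54700 to 61000 normalised counts in controls and 54700 and 53100 at BDNF 6 h, with Map2 and Tubb3 among the most abundant, and those of excitatory neurons at 9760 to 11600 and at 11100 and 11000. Astrocyte markers (13600 to 18300 in controls, 12900 and 13400 at BDNF 6 h), inhibitory neuron, oligodendrocyte lineage and progenitor markers were also present. Microglia markers summed to at most 191 in any of these libraries, and the 6 endothelial and mural markers to 393 to 1400 in controls and 367 and 596 at BDNF 6 h, although Cldn5, which marks endothelium, was at most at 0.979. At the 7 promoter peaks of astrocyte markers, 1 of which opened, the summed ATAC count was 221 to 253 in controls and 224 and 228 at BDNF 6 h.

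BDNF for 6 h mainly opened chromatin. Accessibility rose at 4971 peaks (8.82% of those tested) and fell at 1032 (1.83%; edgeR quasi-likelihood test, Benjamini-Hochberg adjusted p below 0.1), so that 82.8% of called peaks opened. The median log2 fold change was 1.63 for opening peaks and -1.19 for closing peaks, beside -0.0427 for all peaks. A 2-fold or larger rise was seen in 4268 opening peaks, a 4-fold rise in 1565 and an 8-fold rise in 242, while 670 closing peaks fell at least 2-fold and 38 at least 4-fold. Both BDNF libraries lay above all 6 controls in 4630 opening peaks (11.5% of all tested peaks did so), and below all controls in 796 closing peaks (6.18% of all tested peaks). The closing set rested more on single libraries than the opening set did. When BDNF 6 h library A was left out, 3055 peaks opened and 302 closed, and when library B was left out, 3393 opened and 581 closed. At an adjusted p below 0.01 (edgeR), 3324 opened and 106 closed, and against the 2 controls of 6 h alone, 3640 opened and 548 closed.

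**Figure D1:**
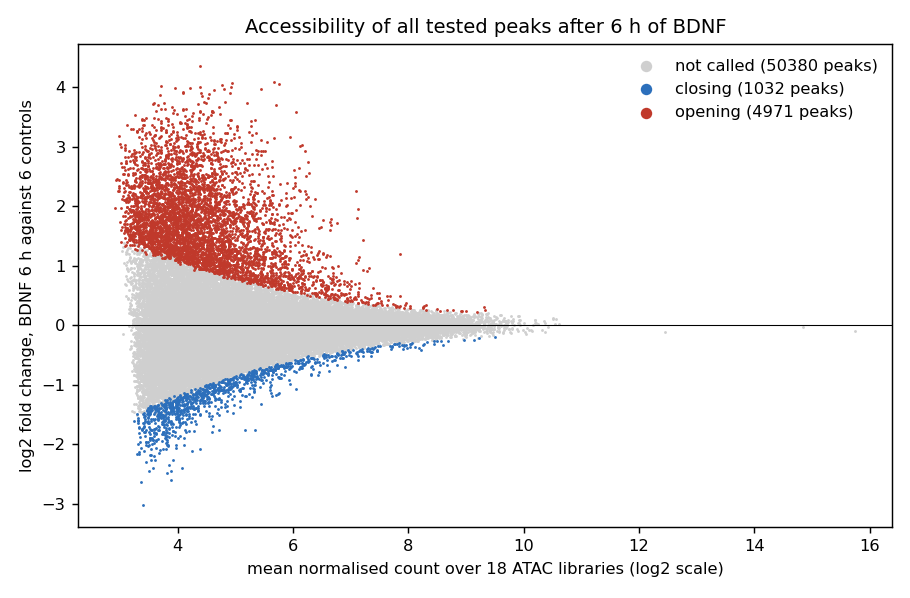
Log2 fold change at BDNF 6 h against 6 controls (vertical axis) by the mean normalised count over the 18 ATAC libraries (horizontal axis, log2), with 1 point per tested peak. The 4971 opening peaks (red) reach a log2 fold change of 4.36 and the 1032 closing peaks (blue) go down to -3.02.

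The median normalised count of opening peaks was 9.11 in controls and 32.1 at BDNF 6 h, that of closing peaks 27.7 and 11.9, and that of all peaks 28.1 and 29.1. These are descriptions with no test, since the same values decided the calls, and peaks at a low control level could pass the minimum mean count of 10 over the 18 libraries through the stimulated libraries. Of opening peaks, 25.9% had at least 1 control library at the lowest count of the table, against 3.26% of all peaks, and none had all 6 controls there. Opening peaks were narrower (median 306 bp, against 332 bp for closing and 375 bp for all peaks) and held less GC around their centre (43.0%, 46.0% and 49.0%).

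The change lay mostly away from gene starts. Promoters, taken as 1000 bp upstream to 100 bp downstream of any annotated start, held 6.06% of opening peaks (301) and 14.1% of closing peaks (145), against 27.1% of all tested peaks. Introns held 41.9% of opening, 36.7% of closing and 33.2% of all peaks, and intergenic DNA 47.7%, 45.2% and 35.0%. The median distance of opening peaks was 67.8 kb from the nearest start of a protein-coding transcript, against 59.3 kb for closing peaks and 28.2 kb for all peaks. Read from the other side, 11.4% of peaks outside promoters opened and 2.16% closed, while 1.51% of the 13729 promoter peaks of protein-coding genes opened and 0.91% closed. Opening peaks had 2974 different nearest genes and closing peaks 925.

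AP-1 letters were common in opening peaks. TGANTCA stood in the central 200 bases of 68.7% of opening peaks (3416 of 4971), 2.81% of closing peaks (29 of 1032) and 13.0% of all tested peaks. Outside promoters the shares were 70.3%, 2.93% and 16.5%, and within promoters 43.5%, 2.07% and 3.54%. The form with C or G in the middle was found in 55.6% of opening peaks and the form with A or T in 20.3%, against 9.06% and 4.72% of all peaks. These are descriptions of letters with no test, and a match does not show that a factor was bound.

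The share with AP-1 letters rose with the size of the change. It was 3.96% of peaks with a log2 fold change below -1, 12.4% from 0 to 1, 67.7% from 1 to 2, 84.0% from 2 to 3 and 88.4% from 3 up. The number of copies went the same way. Of peaks without the letters in the central 200 bases 3.17% opened, of those with 1 copy 40.8%, with 2 copies 78.5% and with 3 or more 89.9% (124 of 138), with median log2 fold changes of -0.08, 0.695, 1.83 and 2.4. Of the 7311 peaks with AP-1 letters, 46.7% opened and 0.397% closed.

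**Figure D2:**
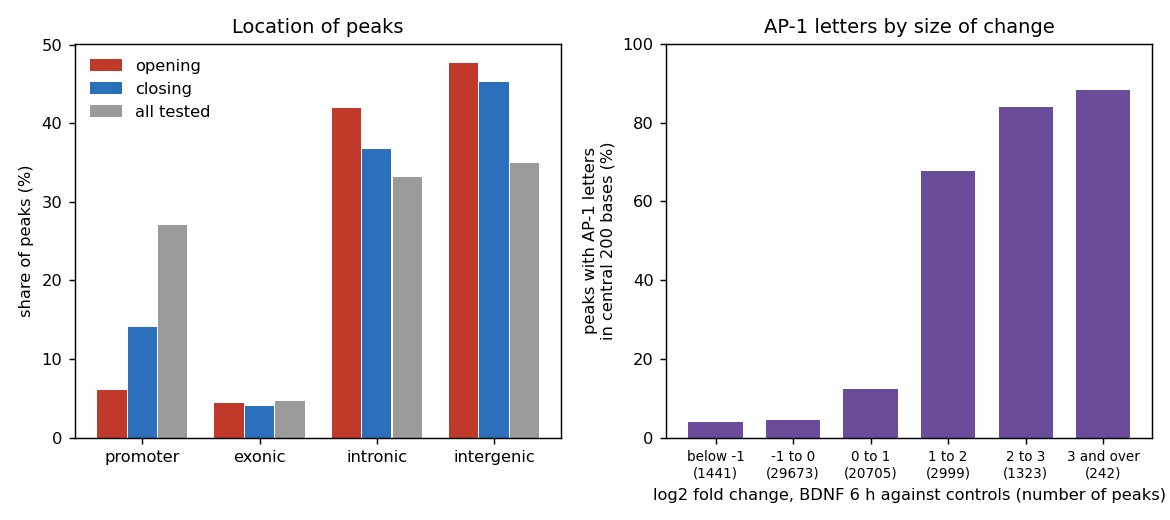
Left, share of opening, closing and all tested peaks (vertical axis, %) in promoters, exons, introns and intergenic DNA. Right, share of peaks with AP-1 letters in the central 200 bases (vertical axis, %) by log2 fold change at BDNF 6 h, with the number of peaks in parentheses, rising from 3.96% below -1 to 88.4% from 3 up.

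The letters lay near the middle of opening peaks. Within 300 bases of the centre of opening peaks there were 6186 matches, 45.6% of them within 50 bases of it, against 10.9% of the 110 matches around closing peaks and 31.2% around all peaks. In the 20 bases just downstream of the centre, opening peaks held 12.4 matches per 100 peaks, and 0.925 in the outermost bin.

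**Figure D3:**
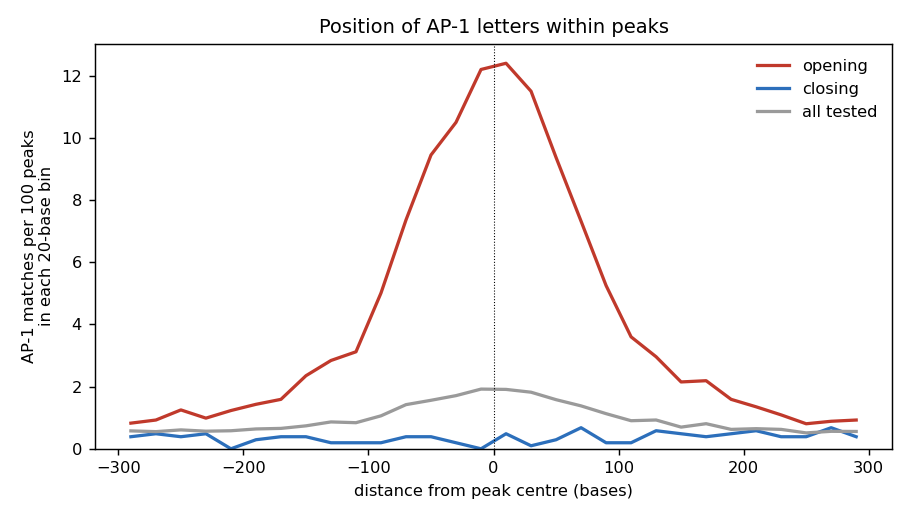
AP-1 matches per 100 peaks in 20-base bins (vertical axis) by distance from the peak centre in bases (horizontal axis), for opening, closing and all tested peaks. Opening peaks reach 12.4 matches per 100 peaks at the centre, and the line for closing peaks stays near the horizontal axis.

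Other motifs were searched by letters on both strands in the same 200 bases. The E-box CAGATG, bound by proneural factors such as NeuroD, was in 24.5% of opening peaks, 22.1% of closing and 18.7% of all peaks, and the E-box CAGCTG in 14.6%, 19.9% and 17.6%. The RFX letters GTTGCCA were in 3.5%, 7.17% and 5.12%, and the HIC1 letters TGCCANCC in 4.1%, 6.98% and 5.56%. Also scarcer in opening peaks than in all peaks were the letters of KLF/SP (GGGGCGG, 1.79%, 5.04% and 9.73%), ETS (CCGGAAG, 0.664%, 0.969% and 3.33%) and CTCF (AGGGGGCG or AGGTGGCA, 1.63%, 2.81% and 4.83%), of which the KLF/SP and CTCF letters can share bases. Within promoters the CTCF letters were in 4.32% of opening, 6.21% of closing and 7.81% of all peaks, and outside them in 1.46%, 2.25% and 3.72%. The KLF/SP and ETS letters were not split by location. The EGR letters GTGGGCG were in 2.55%, 2.03% and 3.47%, but within promoters in 9.63% of opening, 10.3% of closing and 8.71% of all peaks and outside them in 2.1%, 0.676% and 1.53%. The CRE letters TGACGTCA were in 0.523%, 0.291% and 0.717%, the POU letters ATGCAAAT in 4.51%, 3.97% and 3.17%, and the homeobox letters TAATTA in 11.0%, 10.1% and 9.34%.

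The peak that rose most, at chr3:9983955-9984280 in intergenic DNA 28.3 kb upstream of Fabp5, a fatty acid binding protein, went from 1.01, 2.93 and 4.81 normalised counts (lowest, median and highest control) to 67.2 and 47.1 at BDNF 6 h. Its log2 fold change was 4.36 (SE 0.407, adjusted p = 7.919e-17, edgeR), and its groups did not overlap, which the choice of named peaks required. An intergenic peak at chr1:14484429-14484906, 174 kb upstream of Eya1, a transcriptional cofactor, went from 0.982, 6.1 and 11.2 to 125 and 104 (log2 fold change 4.09, SE 0.28, adjusted p = 6.947e-26, edgeR). In the RNA, Eya1 fell by 0.474 on the log2 scale (adjusted p = 0.006082, limma) and Fabp5 was higher by 0.209 (adjusted p = 0.0264, limma).

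The voltage-gated calcium channel gene Cacna1c, which encodes the pore of an L-type channel, held an intronic peak at chr6:119091184-119091508 that went from 1.2, 2.51 and 3.88 to 51.9 and 37 (log2 fold change 4.0, SE 0.426, adjusted p = 6.659e-14, edgeR). As at all the largest rises, no overlap between groups was a condition of the choice. Cacna1c RNA was higher by 0.233 (adjusted p = 0.06484, limma). An intronic peak at chr7:64662390-64663052 in Apba2, an adaptor that binds the amyloid precursor protein, went from 1.45, 6.91 and 14.7 to 135 and 111 (4.06, SE 0.271, adjusted p = 1.215e-26, edgeR). A second intronic peak, at chr7:43481106-43481532 in the adhesion molecule gene Iglon5, went from 1.66, 3.36 and 9.04 to 92.5 and 53.1 (4.07, SE 0.349, adjusted p = 4.5e-19, edgeR). Apba2 RNA did not pass the test (0.2, adjusted p = 0.1337, limma) and Iglon5 RNA fell by 0.221 (adjusted p = 0.06637, limma).

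The intergenic peak at chr13:15777717-15778167, 234 kb upstream of Inhba, which encodes a subunit of activin, had no AP-1 letters in its central 200 bases. It went from 2.01, 4.41 and 7.3 to 69 and 71.1 (log2 fold change 3.97, SE 0.344, adjusted p = 8.218e-19, edgeR). The intronic peak at chr15:48546840-48547272 in Csmd3, a large transmembrane protein, had 3 copies and went from 3.22, 5.22 and 12 to 93 and 118 (3.97, SE 0.288, adjusted p = 4.015e-24, edgeR). Csmd3 RNA fell by 1.3 on the log2 scale (adjusted p = 1.696e-08, limma), and that of Inhba did not pass the test (-0.248, adjusted p = 0.3184, limma). The other peaks among the 10 largest rises, near Lgsn, Mysm1 and Dcbld2, rose by 3.95 to 4.04.

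Of the named closing peaks, that at chr13:69759016-69759395, 19.1 kb upstream of Ube2ql1, a ubiquitin-conjugating enzyme, went from 28.9, 33.3 and 39.3 in controls to 15.7 and 5.47 (log2 fold change -1.76, SE 0.358, adjusted p = 8.438e-05, edgeR). The peak at chr12:9952226-9952763, 378 kb from Osr1, a zinc-finger factor, went from 35.2, 49.5 and 77.3 to 17.6 and 14.6 (-1.76, SE 0.348, adjusted p = 4.784e-05, edgeR). At both peaks, by the rule that chose them, the BDNF libraries lay below every control.

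Another 5 closing peaks with large falls were near Trps1, Slc22a22, Nphp4, Dlg1 and Phlda1 and had log2 fold changes of -1.79 to -1.58. The peak near Phlda1 went from 20.4, 29.9 and 36.8 to 2.89 and 14.9, the widest gap between the BDNF libraries among these 7. None of the 7 peaks had AP-1 letters in the central 200 bases. Of 19 closing peaks that met the naming rule, 17 lost the call under at least 1 alternative, each of them without 1 library, whereas 48 of 55 opening peaks that met it kept it under all 15. The call was lost without BDNF 6 h library B for the peaks near Trps1, Ube2ql1, Nphp4 and Dlg1, and without library A for the peak near Phlda1, and the peaks near Osr1 and Slc22a22 kept it.

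**Figure D4:**
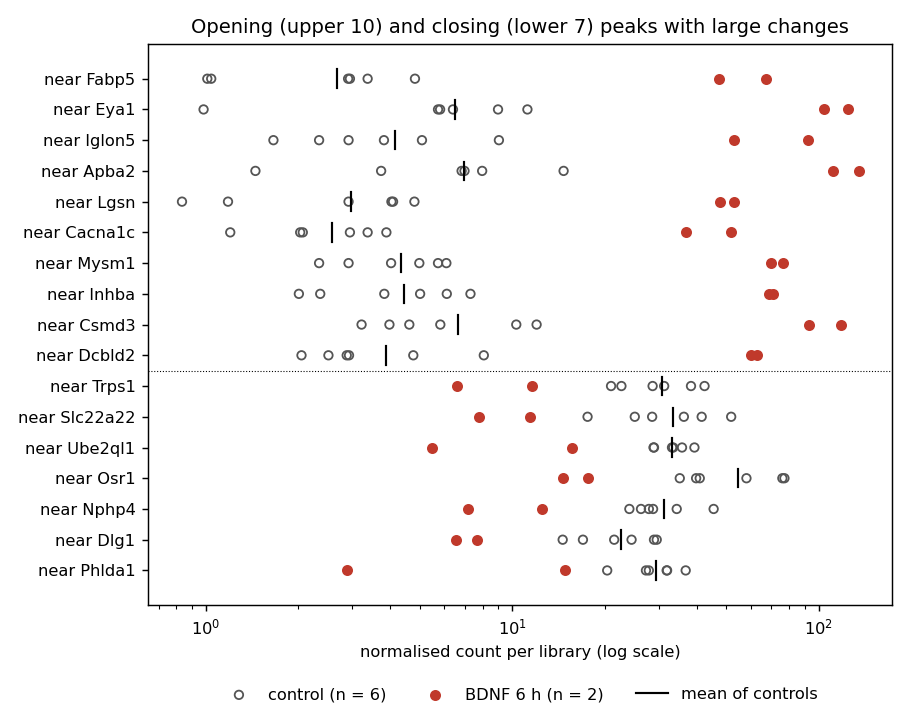
Normalised count per library (horizontal axis, log scale) at 10 opening and 7 closing peaks with large changes, 1 row per peak named by its nearest gene, with 6 controls (open circles), their mean (line) and 2 BDNF 6 h libraries (red). The rows were chosen among peaks whose BDNF libraries lie outside the range of the 6 controls, so that separation is given by the choice.

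Promoter peaks of protein-coding genes that rose most were those of Gm11146 (log2 fold change 3.15), Pate1 (3.08), Rdh10 (3.0), Mpp4 (2.89) and Toporsl (2.53), each with AP-1 letters in the central 200 bases. The Mpp4 promoter peak, at chr1:59162879-59163352, went from 7.99, 11 and 16 to 65.6 and 98.5 (SE 0.275, adjusted p = 2.162e-16, edgeR). The Rdh10 peak, at a start inside this retinol dehydrogenase gene 24.3 kb from its coding transcripts' start, went from 3.28, 7.8 and 10 to 62.4 and 55.8 (SE 0.315, adjusted p = 3.452e-14, edgeR), and Rdh10 RNA did not pass the test (-0.0965, adjusted p = 0.6752, limma).

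Among promoter peaks that fell most, all changes were near 2-fold. They belonged to Tyrp1 (-1.28), a melanin enzyme, Acot1 (-1.15), an acyl-CoA thioesterase, Grm8 (-1.11), a metabotropic glutamate receptor, and Iqsec1 and Arhgef4 (both -1.08), activators of small GTPases. The Grm8 promoter went from 35, 39.7 and 61.1 to 19.6 and 20.7 (SE 0.307, adjusted p = 0.007224, edgeR), and without library A or B it lost the call. Grm8 RNA was higher by 0.396 (adjusted p = 0.02379, limma), and Acot1 RNA fell by 0.523 (adjusted p = 0.003405, limma). All 5 lost the call without at least 1 BDNF library.

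Activity-induced transcription factors, the immediate early genes of neurons, were taken as a list of 22. Within 100 kb of their starts lay 89 peaks nearest to them, of which 10 (11.2%) opened and 1 closed, beside 7.13% opening and 1.54% closing among all 41364 peaks within 100 kb of a protein-coding start. In the RNA 13 of the 22 were higher and 1 lower, beside 22.1% of all 16209 genes tested higher and 21.1% lower (limma). In these bulk samples a change in the number of cells of a type and a change of RNA per cell cannot be told apart. Of their 29 promoter peaks, 1 opened, beside 1.51% of all 13729 promoter peaks of protein-coding genes. It was that of the AP-1 gene Fosl2 (0.26, adjusted p = 0.0955, edgeR).

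Promoters of strongly induced members are given next, chosen after their values were seen. Egr1 RNA was 3.85 higher on the log2 scale (adjusted p = 6.96e-18, limma), and its promoter peak was at 415, 459 and 479 in controls and 526 and 519 at BDNF 6 h (0.204, adjusted p = 0.155, edgeR), above every control without passing the test. Fos RNA was 1.73 higher (adjusted p = 1.49e-08, limma), and of 9 peaks within 100 kb 0 were called by edgeR or DESeq2 (1 had an unadjusted p below 0.05). The larger of its promoter peaks was at 90.1, 103 and 134 in controls and at 108 and 112 with BDNF, within the control range. Egr2 RNA went from 8.3 to 15.6 in controls to 477 and 408 (5.14, SE 0.176, adjusted p = 2.391e-15, limma), with 2 of 5 peaks opening, the one at chr10:67492221-67492405, 43.1 kb upstream, from 1.37, 4.42 and 10.6 to 19.6 and 14.4 (1.58, SE 0.496, adjusted p = 0.02437, edgeR). The call at that peak was lost when either BDNF library was left out and against the controls of 6 h alone.

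Peaks near other members were more changed. One at chr15:38384249-38384975, 83.5 kb upstream of Klf10, a repressor of the Kruppel-like family, and at the start of a transcript that is not protein-coding, went from 21.3, 27.1 and 57.4 to 163 and 127 (2.25, SE 0.202, adjusted p = 7.961e-18, edgeR), and Klf10 RNA was 1.79 higher (adjusted p = 3.914e-12, limma). A peak at chr4:95105344-95105728, 53.1 kb upstream of Jun, went from 17.3, 21.7 and 29.3 to 151 and 92.9 (2.39, SE 0.218, adjusted p = 1.83e-17, edgeR), with Jun RNA 0.198 higher (adjusted p = 0.05064, limma). Both had no overlap with controls, like 93.1% of all opening peaks, which were called from the same values. Peaks near Fosl2 and Klf4 rose by 2.61 and 1.63, and the Klf4 call was lost without BDNF 6 h library B and against the controls of 6 h alone.

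TrkB signalling and its feedback inhibitors, a list of 23, had 95 peaks within 100 kb, of which 11 (11.6%) opened and 0 closed by edgeR or DESeq2 (1 closing at an unadjusted p below 0.05). Of all peaks within 100 kb of a protein-coding start, 7.13% opened and 1.54% closed. In the RNA 16 of the 23 genes were higher and 4 lower, beside 22.1% and 21.1% of all genes tested. Bdnf itself had 10 peaks and Ntrk2, the TrkB gene, had 4, with 0 called by edgeR or DESeq2 (2 and 1 at an unadjusted p below 0.05). Bdnf RNA was 0.895 higher (adjusted p = 0.0012, limma), and Ntrk2 RNA fell by 0.508 (adjusted p = 9.34e-05, limma). Of 29 promoter peaks 2 opened, beside 1.51% of all 13729 promoter peaks of protein-coding genes. The 2 were those of Spred2 (0.534, adjusted p = 0.00101, edgeR) and Spred3 (0.383, adjusted p = 0.0815, edgeR).

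The feedback inhibitors Spred2 and Dusp6, singled out after their values were seen, held 6 of these 11 opening peaks. Other inhibitors of the list had fewer. Dusp4, Spry1 and Spry2 had 1 opening peak each, of 3, 4 and 5. Spry4, Spred1, Dusp1, Dusp5, Dusp14, Errfi1 and Lrig1 had peaks within 100 kb, with 0 called by edgeR or DESeq2. Among these, Spry4 and Dusp5 RNA was higher by 2.93 and 3.23 (adjusted p = 1.08e-08 and 1.03e-11, limma). Spred2, which restrains Ras to MAP kinase signalling, had 4 opening peaks of 9. The largest, in an intron at chr11:19979271-19979668, went from 1.16, 5.22 and 14.6 to 44.9 and 28.5 (2.63, SE 0.352, adjusted p = 1.161e-09, edgeR), and Spred2 RNA was 0.823 higher (adjusted p = 2.08e-08, limma). Dusp6, a phosphatase of ERK, had 2 of 7, the larger at chr10:99250820-99251084, 12.1 kb upstream, from 1.22, 5.59 and 15.5 to 32.3 and 33.8 (2.34, SE 0.411, adjusted p = 3.57e-06, edgeR), with RNA 3.1 higher (adjusted p = 1.805e-14, limma). Its promoter peak was at 354, 375 and 414 in controls and 350 and 343 at BDNF 6 h. An intronic peak of Shc3, a neuronal adaptor of receptor kinases, rose by 2.96 and one of the receptor gene Ntrk3 by 1.55, the latter not called without BDNF 6 h library A.

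Secreted peptides, granins and synaptic effectors (21 genes) had 64 peaks, of which 7 (10.9%) opened and 1 closed. Among all peaks within 100 kb of a protein-coding start 7.13% opened and 1.54% closed. In RNA 15 of 20 measured genes were higher (limma), beside 22.1% of all genes tested. Vgf, Arc and Scg2, with RNA higher by 5.13, 4.8 and 2.89 (adjusted p = 8.18e-08, 1.59e-15 and 1.01e-08, limma), had 2, 3 and 4 peaks, with 0 called by edgeR or DESeq2 (1, 0 and 1 at an unadjusted p below 0.05). The Vgf promoter peak was at 103, 116 and 133 in controls and 93.5 and 85 at BDNF 6 h (-0.41, adjusted p = 0.146, edgeR). Arc, whose product sits at synapses and lowers AMPA receptors, had its larger promoter peak at 62.1, 73.7 and 116 in controls and 90.1 and 115 with BDNF.

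In contrast the gene of corticotropin-releasing hormone, Crh, had an opening intergenic peak at chr3:19758442-19758869, 63 kb upstream, from 5.08, 7.18 and 10.2 to 49.9 and 59.6 (2.87, SE 0.355, adjusted p = 6.174e-11, edgeR), and its RNA was 4.02 higher (adjusted p = 0.001221, limma). Peaks near Inhba (1.89), Sst (1.61) and Cbln4 (1.57) also opened, and the RNA of Sst and Cbln4 was higher by 0.844 and 1.12 (adjusted p = 0.002714 and 3.968e-07, limma). The Sst call was lost without BDNF 6 h library B.

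Axon guidance and adhesion genes (30) had 225 peaks, with 19 (8.44%) opening and 1 closing. The shares among all peaks within 100 kb of a protein-coding start were 7.13% and 1.54%. In RNA 7 of the 30 genes were higher and 12 lower, beside 22.1% and 21.1% of all genes tested. Sema3e, a secreted guidance cue, had an opening peak at chr5:13987200-13987474, 37.8 kb upstream, that went from 0.953, 5.6 and 10.7 to 34 and 29.4 (2.45, SE 0.456, adjusted p = 1.336e-05, edgeR), and its RNA was 3.1 higher (adjusted p = 2.771e-13, limma). Peaks near Efna5 and Slit2 rose by 2.28 and 1.8. The latter was not called without BDNF 6 h library B, nor when only the 8 libraries of BDNF 6 h and controls were fitted. The RNA of neither gene passed the test (-0.00251 and -0.116, adjusted p = 0.9935 and 0.7765, limma).

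Ion channels and transmitter receptors (30) had 176 peaks, with 20 (11.4%) opening and 5 (2.84%) closing. The shares among all peaks within 100 kb of a protein-coding start were 7.13% and 1.54%. In RNA 11 of the 30 genes were higher and 12 lower, beside 22.1% and 21.1% of all genes tested. Beside Cacna1c, intronic peaks of the calcium channel genes Cacna2d1 and Cacna1e rose by 2.9 and 2.15, and the RNA of neither passed the test (-0.0711 and 0.137, adjusted p = 0.4527 and 0.3497, limma). A peak 8.85 kb upstream of the potassium channel gene Kcna1, at chr6:126653664-126653971, went from 1.51, 3.4 and 6.25 to 32.7 and 19.3 (2.7, SE 0.465, adjusted p = 2.096e-06, edgeR), with RNA 1.27 higher (adjusted p = 1.566e-09, limma). Of the 5 closing peaks 2 were near Kcnq3, a subunit of the M-current channel named after its values were seen, and Kcnq3 RNA fell by 1.06 (adjusted p = 1.07e-08, limma).

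Small GTPase regulators and actin genes (20) had 165 peaks, with 20 (12.1%) opening and 4 (2.42%) closing beside 7.13% and 1.54% of all peaks within 100 kb of a protein-coding start. In RNA 8 of the 20 genes were higher and 5 lower, beside 22.1% and 21.1% of all genes tested. An intronic peak of Rasgrf2, an exchange factor for Ras and Rac, at chr13:91936208-91936409 went from 1.01, 2.32 and 6.25 to 28 and 22.2 (2.94, SE 0.476, adjusted p = 4.289e-07, edgeR), while its RNA fell by 1.93 (adjusted p = 1.07e-11, limma). A peak 96.7 kb upstream of Dock10 went from 1.91, 6.57 and 9.97 to 52.5 and 44 (2.93, SE 0.343, adjusted p = 5.855e-12, edgeR), with RNA 0.854 higher (adjusted p = 9.802e-05, limma). Intronic peaks of Rgs20 and Fmn1 rose by 2.7 and 2.16.

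Cortical neuron identity factors (22) had the smallest share of opening peaks among the 7 lists, 4 opening (2.63%) and 1 closing of 152 peaks. Among all peaks within 100 kb of a protein-coding start 7.13% opened and 1.54% closed. In RNA 2 of the 22 factors were higher and 11 lower, beside 22.1% and 21.1% of all genes tested. Of their 34 promoter peaks 0 were called by edgeR or DESeq2 (2 at an unadjusted p below 0.05), while over all genes 207 of 13729 promoter peaks opened and 125 closed. An intronic peak of Rorb, a layer 4 factor, at chr19:18984873-18985344 went from 4.75, 7.2 and 8.2 to 44.5 and 49.8 (2.78, SE 0.352, adjusted p = 1.583e-10, edgeR), with RNA 0.473 higher (adjusted p = 0.001533, limma). A peak 67.7 kb upstream of Fezf2, a deep-layer factor, in an intron of Cadps, rose by 2.73 (adjusted p = 4.785e-06, edgeR), while Fezf2 RNA fell by 0.44 (adjusted p = 0.0001257, limma). Peaks near Foxp2 (1.14) and Neurod6 (-1.28) lost their call under 6 and 10 of 15 alternatives, among them the loss of either BDNF library.

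Counted by nearest start with no limit of distance, opening peaks were most numerous near 6 genes, chosen for these counts. Ties at 9 were taken in alphabetical order. Of all tested peaks, 8.82% opened. Efna5, a ligand of Eph receptors, was nearest to 45 peaks, of which 13 opened and 2 closed. Within 100 kb it had 8 peaks, of which 3 opened. The Basp1 and Cntnap5a peaks with the largest change lay 323 and 1430 kb from the start. Basp1, a membrane protein of growth cones, was nearest to 44 with 12 opening and 3 closing, and Tbl1xr1, a corepressor subunit, to 47 with 11 and 2. Slitrk1 had 10 opening of 32, Cntnap5a 9 of 27 and Dsel 9 of 28. Of these 6 genes, Tbl1xr1 (-0.311) and Cntnap5a (-0.827) fell in RNA (adjusted p = 0.001993 and 0.004347, limma), and the other 4 did not pass the test (adjusted p = 0.5504 to 0.9935, limma). Most closing peaks, 3 each, were nearest to Basp1, Epha5, Ncam1 and Nckap5. Ties were taken in alphabetical order, so further genes with 3 may not be listed. Epha5 also had 3 opening peaks and Ncam1 had 1, and within 100 kb of its start Epha5 had 0 closing peaks. RNA of Epha5, Ncam1 and Nckap5, which encode an Eph receptor, an adhesion molecule and a microtubule-binding protein, was lower. Their log2 fold changes were -0.389, -0.403 and -0.299 (adjusted p = 0.0006305, 6.742e-05 and 0.03373, limma). The Ncam1 and Nckap5 peaks that fell most lost the call when either BDNF library was left out.

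Dense runs of opening peaks were looked for in windows of 100 kb, a search chosen after results were known, and 8 were kept. Runs tied at 4 opening peaks were taken in chromosome order, so further runs of 4 may not be listed. At chr7:105487147-105519728, around Cavin3 and Smpd1, all 6 tested peaks opened, by 0.765 to 2.32, and 5 of them held AP-1 letters. Smpd1 RNA, encoding acid sphingomyelinase, was at 943 to 1090 in controls and 1440 and 1590 at BDNF 6 h (0.554, adjusted p = 3.314e-06, limma). Around Slc2a3, the neuronal glucose transporter, and Foxj2, at chr6:122758812-122826679, 5 of 11 peaks opened, and Slc2a3 RNA was at 1220 to 1480 in controls and 1890 and 1990 (0.49, adjusted p = 5.656e-05, limma). Around Serpinb2 and Serpinb8, at chr1:107505936-107590240, 4 of 6 peaks opened, and the RNA of Serpinb2, a plasminogen activator inhibitor, was 2.98 higher (adjusted p = 1.211e-09, limma). RNA of their neighbours Cavin3 (0.375), Foxj2 (-0.0889) and Serpinb8 (0.941) did not pass the test (adjusted p = 0.109, 0.3834 and 0.2515, limma).

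In the other 5 runs no measured gene passed the test as higher in RNA. Around Basp1, 5 of 9 peaks opened (RNA 0.0188, adjusted p = 0.8983, limma), and around Tfap2b 4 of 5 (RNA -0.364, adjusted p = 0.4974, limma). RNA of A830018L16Rik, with 4 of 6 peaks opening and 1 closing, fell by 0.642 (adjusted p = 0.0003984, limma). RNA of Elmo1, with 4 of 9 opening and 1 closing, fell by 0.227 (adjusted p = 0.04216, limma). The run around Crisp4 and Defb18 had 4 of 7 peaks opening and 1 closing, and neither gene is among those tested in RNA.

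Genes with the largest RNA rise near a called peak (within 50 kb) were Gal, Egr2, Galr1, Ifi202b, Hmga2 and Ifi203. The peptide gene Gal, encoding galanin, was at 0 to 1.96 normalised counts in control RNA and 114 and 113 at BDNF 6 h (5.92 on the log2 scale with pseudocount 1, SE 0.405, adjusted p = 2.456e-10, limma). A peak 4.79 kb upstream of it, at chr19:3419338-3419652 and with 3 copies of the AP-1 letters, went from 1.48, 4.55 and 11.2 to 48 and 41.2 (3.04, SE 0.393, adjusted p = 3.228e-10, edgeR). Galr1, the gene of a galanin receptor, was at 0 to 4.57 in control RNA and 88.3 and 88.7 at BDNF 6 h (4.99, adjusted p = 3.677e-08, limma), and 2 of its 9 peaks opened. Its peak with the largest change lay 568 kb downstream and rose by 2.7.

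Hmga2, an architectural chromatin protein, was at 2.94 to 9.33 in control RNA and 104 and 77.8 at BDNF 6 h (3.94, adjusted p = 1.943e-08, limma), with 3 of 9 peaks opening and 1 closing. The interferon-inducible genes Ifi202b and Ifi203 lie side by side, each with 1 peak that opened, by 1.59 and 1.5, and RNA 3.96 and 3.77 higher (adjusted p = 6.736e-07 and 7.863e-08, limma). The Ifi203 call was lost without BDNF 6 h library A. Reads of these similar genes may have been split in counting, so their separate values are uncertain. The Ifi202b peak, at chr1:173973064-173973682, went from 30, 35.8 and 36.7 to 107 and 100 (SE 0.216, adjusted p = 1.955e-09, edgeR).

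Of the largest RNA falls near a called peak, Mkx, Vwa3a and Bmf stood near closing peaks and Filip1 near an opening peak. RNA of the homeobox gene Mkx was at 43.9 to 66.3 in controls and 8.11 and 16.5 at BDNF 6 h (-2.26, adjusted p = 8.562e-07, limma), and an intronic peak went from 10, 22.1 and 33.3 to 6.51 and 8.71 (-1.53, adjusted p = 0.02594, edgeR). RNA of Bmf, a pro-apoptotic BH3 protein, was at 72.1 to 106 in controls and 31.5 and 32.9 (-1.41, adjusted p = 6.864e-07, limma), beside a peak that fell by 0.949 (adjusted p = 0.02763, edgeR). Filip1 RNA fell by 1.76 (adjusted p = 3.847e-07, limma) beside an intronic peak that rose by 1.79 (adjusted p = 0.000147, edgeR). The Mkx and Bmf peaks lost the call when either BDNF library was left out, and the Vwa3a peak without BDNF 6 h library A or control 1 h library B.

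Across all genes, RNA moved both ways near opening peaks. Of 1363 measured genes with an opening peak within 50 kb that was nearest to them, 376 (27.6%) were higher in RNA and 321 (23.6%) lower, while of the 11954 measured genes with any tested peak there 23.4% were higher and 24.1% lower. Near closing peaks, 76 of 373 genes (20.4%) were higher and 111 (29.8%) lower. The median RNA log2 fold change was -0.0121 near opening peaks, -0.0866 near closing peaks and -0.0179 near any peak. At the upper end the sets stood further apart, with the 95th percentile at 0.974, 0.641 and 0.611. Genes with 3 opening peaks within 50 kb were higher in 37.2% of cases (16 of 43), and those with 4 or more in 1 of 7 cases. In the same RNA libraries 6 of 7 astrocyte markers, 4 of 7 progenitor markers, 3 of 6 pan-neuronal markers and 3 of 7 oligodendrocyte lineage markers were lower, while 3 of 7 inhibitory and 3 of 6 excitatory neuron markers were higher. In the opposite direction went 1 pan-neuronal, 1 oligodendrocyte lineage and 1 excitatory neuron marker. Progenitor markers summed to 9600 to 14300 in controls and 9290 and 10200 at BDNF 6 h, oligodendrocyte lineage markers to 5960 to 6450 and to 5790 and 5660, and inhibitory neuron markers to 11600 to 13500 and to 15100 and 13900. The part of these markers in the counts was not tested.

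The time course was described against the same 6 controls and tested directly. Opening peaks at 6 h had median log2 fold changes of 1.85 at BDNF 1 h, 1.63 at 6 h and 1.48 at 10 h, and 0.922 with KCl at 6 h. Closing peaks had -0.596, -1.19 and -0.45, and -0.222 with KCl. These members were chosen by their change at 6 h and the controls are shared, so the values stand side by side with no test. The Fabp5 peak was at 4.63, 4.36 and 3.51 for the 3 BDNF times, and the Cacna1c peak at 4.66, 4.0 and 3.47.

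Between BDNF 6 h and BDNF 1 h directly, 85 peaks differed (0.151% of those tested, edgeR), 16 higher and 69 lower at 6 h. AP-1 letters were in 44.9% of the 69 and in none of the 16, beside 13.0% of all tested peaks, and 16 peaks are few for such a share. Against the controls 22 of the 69 and 1 of the 16 were opening peaks at 6 h. The count of 85 fell to between 6 and 18 when 1 library of the 4 was left out. Among named peaks the intronic Spred2 peak differed, at 164 and 170 in the BDNF 1 h libraries and at 44.9 and 28.5 at 6 h (6 h minus 1 h, -2.21, adjusted p = 2.02e-05, edgeR). Between BDNF 6 h and BDNF 10 h, 0 peaks differed (0%) by edgeR and by DESeq2, with 3112 and 2570 at an unadjusted p below 0.05, and 1 was called without BDNF 10 h library B. The BDNF 10 h libraries held 2.02 and 2.78 M reads in peaks and correlated at 0.871. With 2 libraries in each group, a count of 0 does not show that accessibility was the same.

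**Figure D5:**
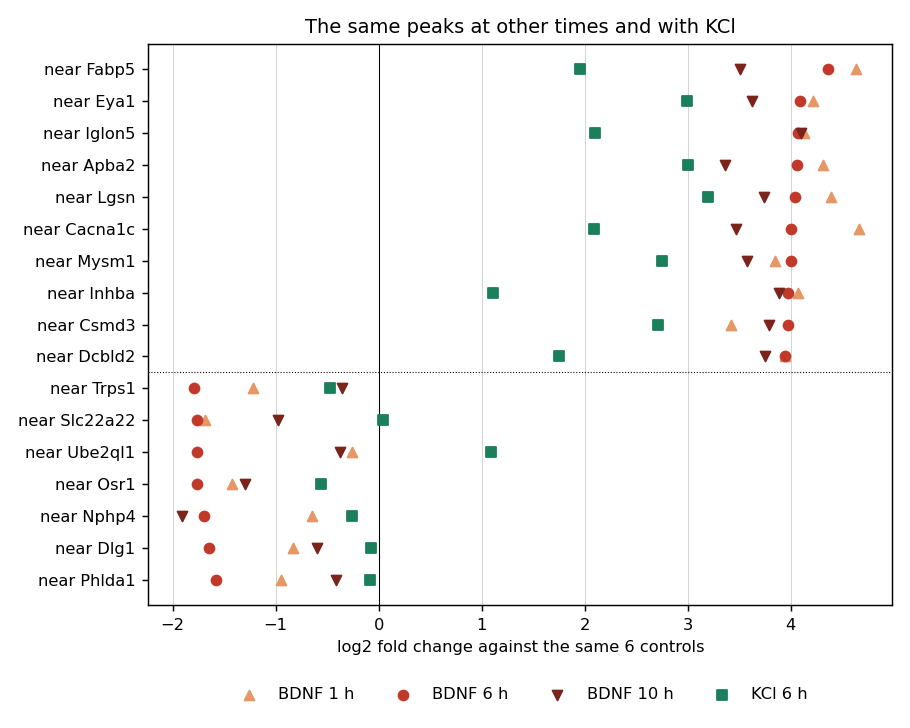
Log2 fold change against the same 6 controls (horizontal axis) of the same 10 opening and 7 closing peaks of BDNF 6 h (rows, by nearest gene) at BDNF 1, 6 and 10 h and at KCl 6 h. The opening peaks lie from 3.36 to 4.66 at the 3 BDNF times and from 1.11 to 3.2 with KCl.

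KCl, which depolarises neurons, was compared at the same time. Between BDNF 6 h and KCl 6 h, 2028 peaks differed (3.60%, edgeR), 1214 higher and 814 lower with BDNF. AP-1 letters were in 41.5% and 6.76% of these, beside 13.0% of all tested peaks. KCl 6 h library B held 1.24 M reads in peaks, the fewest of the 18, and without it 602 peaks differed. With KCl 6 h library A left out 962 differed, with BDNF 6 h library A left out 395 and with its library B left out 806, and DESeq2 called 1184. The Inhba peak without AP-1 letters stood at 69 and 71.1 after BDNF, against 9.17 and 10.5 after KCl (BDNF minus KCl, 2.86, adjusted p = 2.921e-05, edgeR). The peak upstream of Gal stood at 48 and 41.2 after BDNF, against 9.8 and 2.63 after KCl (2.5, adjusted p = 0.003862, edgeR), and the Shc3 peak at 37.4 and 43.5 against 8.3 and 2.63 (2.57, adjusted p = 0.002804, edgeR). At the closing peak near Ube2ql1 BDNF gave 15.7 and 5.47 and KCl gave 70.9 and 69.7 (-2.84, adjusted p = 6.131e-07, edgeR), where both KCl libraries stood above every control.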

How the data were processed

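The series holds 18 ATAC-seq and 18 RNA-seq samples, with 9 groups of 2 in each assay by the labels. The authors mapped ATAC-seq reads with bowtie2 (mm10), called peaks in every sample with MACS2, took those present in 2 samples or more, and used DiffBind for counting. The submitters' processing notes also name Trimmomatic. The deposited ATAC values are raw counts (all whole, none under 1), so a count of 1 may stand for no read and low control levels may be set by it. For RNA-seq, reads were mapped to mm10 with TopHat2, and the deposited signal is read counts divided by 1 size factor per sample by the authors, from which whole reads were recovered for 100% of values (tolerance 0.01). On those reads edgeR called 3566 genes higher and 3586 lower. The deposited tables of the authors' own comparisons (fold changes and p-values) were not used. All columns of the value tables were used.

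ATAC counts were scaled with LOESS offsets and tested with edgeR 4.0.16 (quasi-likelihood, robust, 7 levels, the 6 controls as 1 level, mean count of at least 10). The SE is the log2 fold change divided by the square root of F. RNA was tested as log2(value + 1) with limma 3.58.1 (trend, robust, mean of at least 10), a scale that understates changes of low genes. Tests were two-sided, with Benjamini-Hochberg adjusted p below 0.1 over all peaks (56383) or genes (16209). Normalised counts are LOESS-scaled for ATAC. The fits were tested on simulated data with known changes in few peaks or genes, at BDNF 6 h alone. Many more were called in the data themselves, so the simulations do not give the error rate here. DESeq2 1.42.0 was an alternative. With 2 libraries of BDNF at 6 h the spread was borrowed from all 18 libraries. The authors call the replicates biological, while the labels do not say that they are separate cultures. The p-values thus measure the spread between these samples, which may in part be technical.

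Peaks were annotated with GENCODE M21 on GRCm38, the same build as mm10. The nearest gene is that of the nearest start of a protein-coding transcript and need not be the gene a peak acts on. Named peaks were the 10 largest rises and 8 largest falls among called peaks with a mean normalised count of at least 20 and no overlap between groups, the 5 promoter peaks with the largest rise and 5 with the largest fall by the same rule, up to 4 called peaks per gene list within 100 kb, the 6 and 4 genes with most opening and closing peaks, and the 6 and 4 genes with the largest RNA rise and fall within 50 kb of a called peak. Promoter values of single listed genes, the AP-1 details and the runs of opening peaks were added after values were seen. Members and lists were chosen with earlier results of these data known. ATAC libraries held from 1.24 to 6.24 M reads in peaks, and RNA libraries 8.51 to 36.7 M reads, which leaves counting error in the weakly accessible peaks. Some peaks that met the naming rule are not reported here.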

Additional observations from a re-analysis of the deposited data

Results flagged for a closer look

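Within the 6 controls, 1 library stood apart from the others by Dixon's test (gap over range above its 95% critical value) in 12 of 95 groups of values examined. A rate of about 1 in 20 would hold for independent groups of normally distributed values. These groups share the control libraries and hold unlogged values, so the 12 cannot be set against that rate. For peaks the ratios were 0.666 near Toporsl, 0.804 near Klf10, 0.637 near Spred2, 0.671 near Ntrk3, 0.648 near Foxp2, 0.834 near Basp1 and 0.752 near Tbl1xr1. The highest control at the Klf10 peak was at 57.4 and both BDNF 6 h libraries at 127 or more. For control RNA they were 0.689 for Hmga2, 0.706 for Mkx, 0.673 for Filip1 and 0.747 for Vwa3a. Depth of the control RNA libraries gave 0.902, from the 1 h library A with 36.7 M reads beside 9.75 to 12.4 M in the other 5. The Spred2 peak changed between times of BDNF, with a log2 difference of -2.21 for 6 h minus 1 h (adjusted p = 2.02e-05, edgeR).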

How the results depend on the processing

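Opening peaks numbered 4971, and 3324 (adjusted p below 0.01) to 5431 (TMM) under the alternatives of threshold, scaling, tool, filter and controls, and 3055 to 5046 when 1 library was left out. Closing peaks numbered 1032 and moved to 106 at an adjusted p below 0.01 and to 548 with the controls of 6 h, and to 302 to 1017 when 1 library was left out. For BDNF 6 h against BDNF 1 h (85), the stricter threshold gave 16, and leaving out a library 6 to 18. Against BDNF 10 h (0), leaving out a library gave 0 to 1. Against KCl 6 h (2028), the stricter threshold gave 274, DESeq2 1184, and leaving out a library 395 to 962, while TMM and size factors gave 2750 and 2863. In RNA, 3588 genes were higher and 3426 lower, with 2062 and 1777 at an adjusted p below 0.01, and 2303 to 3716 and 2141 to 3562 when 1 library was left out. With a replicate block for the letters of the RNA columns, 3666 were higher and 3574 lower, and deviations of samples of the same letter correlated at 0.203 to 0.418 among BDNF 6 h and the controls of 1 and 6 h but at -0.315 to -0.166 between each of these and the controls of 10 h, so not every pair was above 0.1 and the letters were not taken to pair the samples. No paired analysis was possible for ATAC because its columns carry no replicate number. AP-1 letters searched in whole peaks were in 79.6% of opening, 6.3% of closing and 19.6% of all peaks. The share of genes near opening peaks that were higher in RNA was 28.2% within 100 kb and 27.0% with no limit. Named peaks did not change direction under any of the 15 alternatives. Against the controls of 6 h alone, 8 of the 19 closing and 3 of the 55 opening named peaks lost the call. Beyond construction (fewer libraries or a stricter threshold), the cause of these shifts was not tested.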
